A study of Mus musculus with 8 samples.

Results

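Polycomb group proteins keep genes silent, and in flies and mammals they work against the Trithorax group, to which the MLL histone methyltransferases belong. Menin, the product of Men1, is a subunit of MLL1 and MLL2 complexes, which deposit H3K4me3. RNA levels of 10 genes were followed here in wild-type and menin-null cells: the PRC2 genes Ezh1, Ezh2, Eed, Suz12 and Jarid2, the PRC1 genes Rnf2, Bmi1, Cbx2 and Cbx7, and Kdm6b. Members were all probe sets that the array's platform annotation assigns to 1 of these 10 symbols and to no other gene, which gave 31 of the 34945 probe sets with 1 symbol. All 10 genes were measured, out of 18193 genes in all. 1 further probe set, shared by Kdm6b and a second gene, was left out.

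PRC2 places methyl groups on lysine 27 of histone H3. Its catalytic subunit is Ezh2 or Ezh1, Eed binds the finished mark and Suz12 holds the core together, while Jarid2 is an accessory subunit that helps recruit the complex and is prominent in embryonic stem cells. PRC1 places ubiquitin on histone H2A through Rnf2 (Ring1b). Its canonical forms also hold a Pcgf protein such as Bmi1 (Pcgf4) and a Cbx protein such as Cbx2 or Cbx7, which binds the methylated histone, and Cbx7 is known as the main Cbx protein of mouse embryonic stem cells. Kdm6b (Jmjd3) removes the methyl groups from lysine 27 and so acts against PRC2. In embryonic stem cells Polycomb complexes are known to hold developmental regulators silent until differentiation.

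The 8 arrays came from 4 groups of 2 independent cultures each. Wild-type mouse embryonic stem cells (mESCs) were of the TC-1 line and menin-null (Men1-KO) mESCs of the 3.2N line, both on the 129S6/SvEvTac background and grown on irradiated feeder fibroblasts before being made feeder-free. Wild-type and menin-null pancreatic islet-like endocrine cells (PILECs) were made in culture from the same 2 lines through embryoid bodies, expansion with a growth factor and a last stage with nicotinamide. Each genotype was 1 line, so genotype and line cannot be told apart. The comparisons asked whether loss of menin altered the RNA of these genes in either cell type, and how they changed on differentiation.

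Values are log2 signals as deposited. A gene was represented by its brightest probe set over the 8 arrays, differences are log2 differences with the standard error (SE) of a linear model fitted by limma to all genes, and "rose", "fell", "higher" and "lower" are used of results with a Benjamini-Hochberg adjusted p under 0.05 over 18193 genes. Genes were called expressed where a group mean reached 7, which is a working limit and not a background that was measured. Levels of different probe sets are not comparable with each other. These were bulk samples, so fewer cells of a type and less RNA per cell cannot be told apart.

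Men1 itself was lower in the menin-null libraries, from 9.94 ± 0.04 (SD, n = 2) to 7.79 ± 0.03 in mESCs and from 9.99 ± 0.10 to 7.99 ± 0.05 in PILECs by its brightest probe set. The 2 arrays of a group correlated at 0.993 to 0.998 across probe sets, and menin-null mESC array 2 correlated more closely with wild-type mESC array 1 (0.994) than with its own replicate (0.993). All 10 pluripotency markers fell on differentiation in both genotypes. The islet markers were mixed. Ins2, which encodes insulin, averaged 6.82 in wild-type mESCs and 7.23 in their PILECs, and 7.19 and 7.37 without menin, and did not rise. Neurod1 averaged 9.40 and 8.95 with menin, where it fell (-0.44, adjusted p = 0.0299), and 8.84 and 8.68 without menin, where it did not pass. By other measures, the study reported more NeuroD1 protein after differentiation and staining for insulin C-peptide, in both genotypes. By RT-PCR it found transcripts of insulin and other islet hormones at low to moderate levels in both. Of 11 measured islet markers 4 rose and 2 fell in wild-type cells and 6 rose and 1 fell in menin-null cells. Those that fell were Neurod1 and Ppy (-0.44) in wild-type cells and Pdx1 (-0.52) in menin-null cells. Ppy and Pdx1 had means under 7 in every group. The hormone gene Sst rose by 2.42 and 1.44 (wild-type and menin-null cells in turn), Chga by 1.38 and 1.60, Isl1 by 1.20 and 0.83 and Nkx6-1 by 1.05 and 0.77. Isl1 stayed under 7 in menin-null cells (means of 6.06 in mESCs and 6.89 in PILECs). Gcg (4.24 and 4.76) and Iapp (4.17 and 4.66) rose in menin-null cells only, and both had means under 7 in every group. Of 10 neuron markers, 10 rose with menin and 9 without it, with median differences of 3.91 and 4.02, and 8 of 9 fibroblast markers rose in each genotype. Of 9 striated muscle markers, 5 rose and 2 fell in wild-type cells, and 4 rose and 4 fell in menin-null cells. Of all genes 27.8% rose and 35.3% fell in wild-type cells, and 28.9% rose and 36.1% fell in menin-null cells. The PILEC label was kept for these cultures, but differences between PILECs and mESCs compare stem cells with cultures in which neuron and fibroblast markers were raised.

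The promoters of the PRC2 core genes Ezh2, Eed and Suz12 are shown as examples. Their RNAs fell on differentiation, as did those of Jarid2 and Cbx7, and a link between motifs and RNA levels was not tested. RefSeq promoter windows (GRCm38.p6, 250 bases before to 50 after the annotated start) were found for 8 of the 10 members, with 9 windows in all. Cbx2 and Kdm6b had none in the table. Capitals mark matches, on either strand, to the E2F-type motifs TTTCCCGC and TTTGGCGC and to the CCAAT box (CCAAT, or ATTGG on the other strand). No matches overlap in the windows shown. Ezh2 lies on the minus strand at chr6:47594981-47595280, Eed on the minus strand at chr7:89980927-89981226 and Suz12 on the plus strand at chr11:79992856-79993155, and each sequence is written 5′ to 3′ along the gene.
Ezh2: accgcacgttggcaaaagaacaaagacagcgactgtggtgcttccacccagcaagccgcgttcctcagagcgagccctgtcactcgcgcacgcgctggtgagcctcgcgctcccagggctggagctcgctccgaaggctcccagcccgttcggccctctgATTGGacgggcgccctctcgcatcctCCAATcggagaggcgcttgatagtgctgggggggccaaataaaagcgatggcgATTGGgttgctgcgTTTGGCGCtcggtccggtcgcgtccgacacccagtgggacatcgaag
Eed: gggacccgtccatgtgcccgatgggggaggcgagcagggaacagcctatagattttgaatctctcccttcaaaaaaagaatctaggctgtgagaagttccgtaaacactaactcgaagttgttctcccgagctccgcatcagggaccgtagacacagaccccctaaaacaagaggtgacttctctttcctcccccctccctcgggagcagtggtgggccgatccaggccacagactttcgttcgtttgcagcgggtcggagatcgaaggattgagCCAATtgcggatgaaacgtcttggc
Suz12: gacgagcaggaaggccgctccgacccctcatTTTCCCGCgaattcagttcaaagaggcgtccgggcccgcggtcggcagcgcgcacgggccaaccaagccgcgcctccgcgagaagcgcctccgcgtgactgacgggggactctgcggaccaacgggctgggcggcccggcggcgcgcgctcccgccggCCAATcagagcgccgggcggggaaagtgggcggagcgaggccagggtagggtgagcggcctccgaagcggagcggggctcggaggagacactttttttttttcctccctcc
Ezh2 held 1 TTTGGCGC and 3 CCAAT matches, Suz12 held 1 TTTCCCGC and 1 CCAAT match, and Eed held 1 CCAAT match. Of all 32851 windows of the same length, 1.07% held TTTCCCGC, 0.514% TTTGGCGC and 37.4% CCAAT. No window of the other members held an E2F-type match. Jarid2 had 1 CCAAT match in each of its 2 windows and Cbx7 had 1. These letters are descriptions of the windows and not measured binding sites.

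In mESCs the 10 members stood at nearly the same levels with and without menin by their brightest probe sets. None of the 10 passed the test (limma, adjusted p under 0.05), whereas 3.64% of all genes did. An unadjusted p under 0.05 was found for 1 of 10, against 3369 of all 18193 genes. The differences ranged from -0.11 for Bmi1 to 0.26 for Kdm6b with a median of 0.02, against 0.01 over all genes. Their 95% confidence intervals lay between -0.51 and 0.51, and the widest was that of Bmi1. The arrays of the 2 genotypes did not overlap for Suz12 and Kdm6b, 2 of 10, against 49.0% of all genes. Kdm6b, the demethylase, gave 9.83 and 9.69 on the wild-type and 9.97 and 10.08 on the menin-null arrays, so that the menin-null arrays lay just above the others (0.26, SE 0.10, adjusted p = 0.231). Ezh2 gave 12.03 and 12.05 against 12.00 and 12.06, and Cbx7 gave 10.65 and 10.61 against 10.75 and 10.59, with overlap in each. Of the 31 single probe sets none passed the adjusted test (limma), against 2.20% of all probe sets with 1 symbol. An unadjusted p under 0.05 was found for 5, and no share over all probe sets was taken. These 5 were a dim Eed probe set (-0.49, adjusted p = 0.0534), 2 dim Suz12 ones (-0.50 and -0.46), and the dimmest (0.48) and the brightest of Kdm6b.

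**Figure D1:**
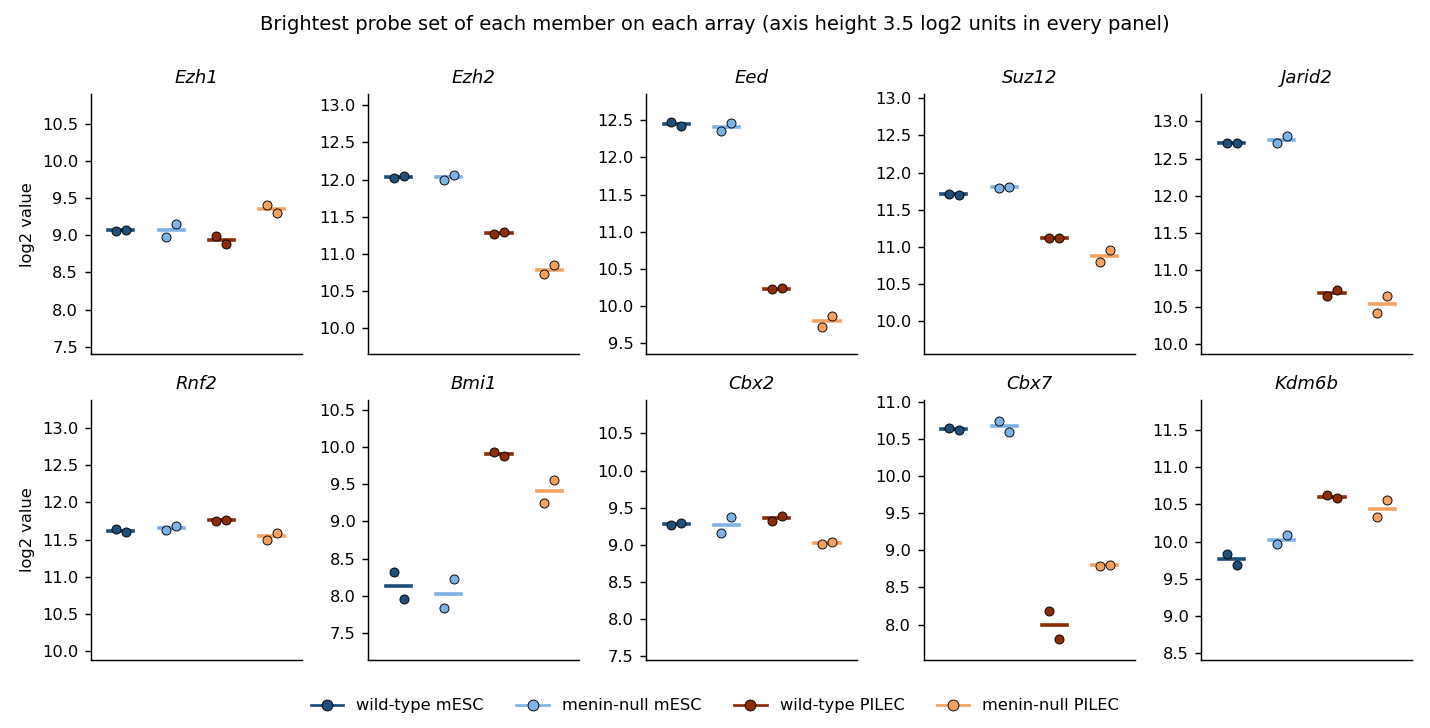
Log2 value (y axis) of the brightest probe set of each of the 10 members on each of the 8 arrays, with points for arrays, bars for group means (n = 2) and a y axis of equal height in each panel. The 2 mESC groups are level for all members except a small step for Kdm6b, Eed, Jarid2 and Cbx7 drop and Bmi1 climbs in PILECs, and the menin-null PILEC points of Cbx7 lie above the wild-type ones.

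In PILECs, 4 of the 10 members differed between genotypes, against 6.68% of all genes. The menin-null PILECs had more Cbx7 and Ezh1 RNA, and less Ezh2 and Eed RNA. By value 8 of the 10 were lower, with a median of -0.23 against -0.01 over all genes. An unadjusted p under 0.05 was reached by 8 of the 10, against 4229 of all 18193 genes. The arrays of the genotypes did not overlap for any of the 10, against 54.7% of all genes. 2 were higher and 2 lower, against 2.26% and 4.42% of all genes. None reached the study's threshold (2-fold with an unadjusted p under 0.005), as 0.830% of all genes did. In the limma fit to all probe sets with 1 symbol, 1 of the 31 was higher (Cbx7) and 2 lower (Ezh2 and Eed). Of all probe sets 1.31% were higher and 2.56% lower. No Ezh1 probe set passed in that fit (adjusted p = 0.0631 for the brightest), and the dim Eed probe set differed by -0.02.

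Among the methyltransferase subunits, Ezh2 gave 11.27 and 11.30 on the wild-type PILEC arrays and 10.73 and 10.84 on the menin-null ones. All 4 lay below every mESC array, and the menin-null pair lay lowest (-0.50, SE 0.08, 1.41-fold, adjusted p = 0.0160). Ezh1, the alternative catalytic subunit, went the other way, with 8.99 and 8.89 in wild-type and 9.41 and 9.30 in menin-null PILECs (a difference of 0.42, SE 0.09, 1.34-fold, adjusted p = 0.0428). The menin-null PILEC arrays were the highest of the 8 for Ezh1. Eed gave 10.23 and 10.24 in wild-type and 9.72 and 9.87 in menin-null PILECs, again with the menin-null pair lowest (-0.44, SE 0.09, 1.36-fold, adjusted p = 0.0288).

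The remaining PRC2 members had smaller differences of the same sign as Ezh2 that did not pass. Suz12 gave 11.12 and 11.11 against 10.80 and 10.95 (-0.24, SE 0.08, adjusted p = 0.128). Jarid2 gave 10.65 and 10.73 against 10.43 and 10.65, where the closest arrays of the 2 genotypes were nearly level (-0.15, SE 0.10, adjusted p = 0.395).

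Among the PRC1 genes, Cbx7 had the largest difference of the 10 members. It gave 8.18 and 7.80 on the wild-type and 8.79 and 8.80 on the menin-null PILEC arrays (0.81, SE 0.13, 1.75-fold, adjusted p = 0.0139). The menin-null arrays agreed closely while the wild-type arrays were further apart, and all 4 lay far below the mESC arrays. The difference was carried by the brightest of its 3 probe sets. A dimmer one gave 6.94 and 7.26 against 7.28 and 7.23, which overlap, and the dimmest stayed between 5.16 and 5.57 on all arrays.

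Other PRC1 members were lower by value in menin-null PILECs without passing. Cbx2 gave 9.32 and 9.39 against 9.01 and 9.03 (-0.33, SE 0.09, adjusted p = 0.0777), Bmi1 gave 9.93 and 9.88 against 9.25 and 9.56 (-0.51, SE 0.17, adjusted p = 0.130) and Rnf2 gave 11.76 and 11.76 against 11.50 and 11.59 (-0.21, SE 0.08, adjusted p = 0.156). The menin-null arrays were further apart for Bmi1 than for Cbx2 or Rnf2, and a second Bmi1 probe set showed nearly the same difference (-0.50). Kdm6b gave 10.62 and 10.58 against 10.33 and 10.56 (-0.16, SE 0.10, adjusted p = 0.409), the opposite sign to its value in mESCs.

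**Figure D2:**
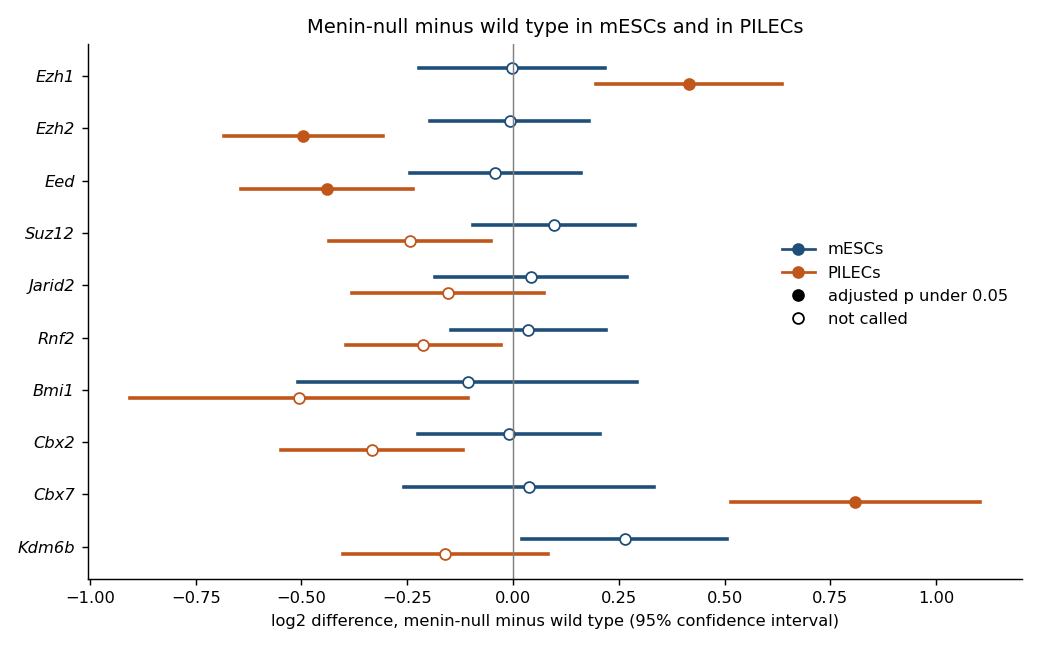
Log2 difference between menin-null and wild-type cells (x axis) for each member (y axis) in mESCs and in PILECs, with 95% confidence intervals and filled points for an adjusted p under 0.05. In mESCs all points lie between -0.11 and 0.26 and are open, while in PILECs Ezh1 and Cbx7 are to the right and Ezh2 and Eed to the left of 0.

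These PILEC calls were sensitive to single arrays. Of the 4 members, 1 was called without wild-type PILEC array 1 (Cbx7), none when wild-type PILEC array 2 or the first menin-null PILEC array was left out, and 1 when the second menin-null PILEC array was (Ezh2). Without either wild-type mESC array, which enters through the shared estimate of the spread, 2 were called. Without either menin-null mESC array all 4 were called, and Cbx2 was called too (adjusted p = 0.041), which made 5 of the 10 members. The 4 differences kept their sign in each case. Fitted with an intensity trend in the variances, 8 of the 10 members were called, and with the mean of all probe sets of a gene 1 was, Ezh2. Ezh2 has only 1 probe set, so that mean could not change its value, unlike those of Ezh1, Eed and Cbx7.

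Cell-cycle and lineage genes moved in the same comparison. Of all genes 4.42% were lower and 2.26% higher there. Of 20 measured proliferation genes, 10 were lower in menin-null PILECs and all 20 were lower by value, with a median of -0.37. Their mean log2 level was 10.34 and 10.36 on the wild-type and 10.02 and 9.89 on the menin-null arrays. 6 of 10 pluripotency markers were lower (median -0.70), Nanog by 0.93 and Pou5f1 by 0.81 on the log2 scale, and 7 of 9 striated muscle markers were lower (median -1.40). The mean log2 level of the muscle list was 8.77 and 9.07 in wild-type and 7.67 and 7.38 in menin-null PILECs. Of the fibroblast markers 1 was higher and 2 lower, of the neuron markers 1 was higher, and of the islet markers none passed. An unadjusted p under 0.05 was reached by 5 of 11 islet markers, against 4229 of all 18193 genes. Ezh2 and Eed had the same sign as the proliferation genes, and Cbx7 and Ezh1 had the opposite sign. The part of the cell-cycle and lineage genes in the differences of Ezh2, Eed, Ezh1 and Cbx7 was not tested.

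Whether the menin-null difference itself differed between PILECs and mESCs was tested as an interaction. None of the 10 members passed (limma), against 3.06% of all genes. An unadjusted p under 0.05 was found for 7 of 10, against 3409 of all 18193 genes. The largest were Cbx7 (0.77, SE 0.18, adjusted p = 0.0693) and Ezh2 (-0.49, SE 0.11, adjusted p = 0.0709). For Kdm6b, whose sign was opposite in the 2 cell types, the interaction was -0.42 (SE 0.15, adjusted p = 0.174). No member's menin-null difference was thus shown to differ between the cell types by the adjusted test.

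By their brightest probe sets, Eed, Jarid2, Cbx7 and Bmi1 moved by more than 1 log2 unit on differentiation in each genotype. By the same measure Ezh1, Cbx2 and Rnf2 moved less than they differed between the genotypes in PILECs. Some dimmer probe sets of Ezh1 and Rnf2 moved by more than their own genotype difference. In wild-type cells 7 of 10 changed, against 63.1% of all genes, with 5 lower and 2 higher (35.3% and 27.8% of all genes). In menin-null cells 9 of 10 changed, against 65.0% of all genes, with 6 lower and 3 higher (36.1% and 28.9% of all genes). At the study's threshold 4 and 5 passed, against 30.4% and 31.6% of all genes. These shares read against a background in which most genes changed. The medians were -0.36 and -0.59, against -0.08 and -0.07 over all genes. The arrays of mESCs and PILECs did not overlap for any of the 10 in either genotype, as for 83.6% and 79.0% of all genes.

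The 3 core PRC2 genes and Jarid2 fell, by amounts that differed widely. Eed gave 12.48 and 12.42 in wild-type mESCs and 10.23 and 10.24 in wild-type PILECs (-2.22, SE 0.09, 4.64-fold). In menin-null cells it went from 12.36 and 12.46 to 9.72 and 9.87 (-2.61, 6.12-fold). Jarid2 gave 12.71 and 12.71 in wild-type mESCs and 10.65 and 10.73 in PILECs (-2.02, SE 0.10, 4.06-fold), and fell by 2.22 in menin-null cells. No array of one cell type came near those of the other for either gene.

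Ezh2 fell less, by 0.75 (SE 0.08, 1.69-fold, adjusted p = 6.19e-05) in wild-type and by 1.24 (2.36-fold) in menin-null cells. Suz12 gave 11.71 and 11.70 in wild-type and 11.80 and 11.81 in menin-null mESCs, and fell by 0.59 (1.50-fold) and 0.93 (1.90-fold). Ezh1 did not follow Ezh2. It stood at 9.06 and 9.07 in wild-type and 8.97 and 9.16 in menin-null mESCs, differed by -0.13 (SE 0.09, adjusted p = 0.266) in wild-type cells and rose by 0.29 (SE 0.09, adjusted p = 0.0276) in menin-null cells. That rise did not pass without either wild-type mESC array (adjusted p = 0.0504), menin-null mESC array 1 (0.20, adjusted p = 0.138) or menin-null PILEC array 1 (0.23, adjusted p = 0.125).

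Among the PRC1 genes, Cbx7 fell and Bmi1 rose. Cbx7 went from 10.65 and 10.61 to 8.18 and 7.80 in wild-type cells, the largest fall of the 10 (-2.64, SE 0.13, 6.25-fold), and from 10.75 and 10.59 to 8.79 and 8.80 in menin-null cells (-1.87, 3.66-fold). Bmi1 gave 8.32 and 7.95 in wild-type mESCs and 9.93 and 9.88 in PILECs (1.77, SE 0.17, 3.42-fold). In menin-null cells Bmi1 went from 7.84 and 8.22 to 9.25 and 9.56 (1.38, 2.59-fold). Its mESC arrays were the least alike of any member and still lay below every PILEC array.

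Rnf2, the ubiquitin ligase, stayed between 11.50 and 11.76 on all 8 arrays by its brightest probe set and passed in neither genotype (0.14, adjusted p = 0.166, and -0.11, adjusted p = 0.256). With the mean of all its probe sets it fell in each (-0.33, adjusted p = 0.005302, and -0.68, adjusted p = 6.2e-05), and on values quantile-normalised again it rose in wild-type cells (0.298, adjusted p = 0.00479). Cbx2 differed by 0.08 (adjusted p = 0.518) in wild-type cells and fell by 0.25 (adjusted p = 0.0455) in menin-null cells. This call of Cbx2 was lost without any single array except menin-null mESC array 1, with adjusted p from 0.0671 to 0.226, and on values quantile-normalised again the difference was -0.07.

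Kdm6b rose, from 9.83 and 9.69 to 10.62 and 10.58 in wild-type cells (0.84, SE 0.10, 1.79-fold, adjusted p = 0.000146). In menin-null cells it rose from 9.97 and 10.08 to 10.33 and 10.56 (0.42, 1.34-fold, adjusted p = 0.00765), with a smaller gap between the arrays of the 2 cell types. The demethylase therefore moved opposite to Ezh2, Eed, Suz12 and Jarid2 in both genotypes. All 20 proliferation genes also fell in both genotypes (medians -1.69 and -2.11), against 35.3% and 36.1% of all genes. The part of the proliferation genes in the falls of the PRC2 genes was not tested.

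**Figure D3:**
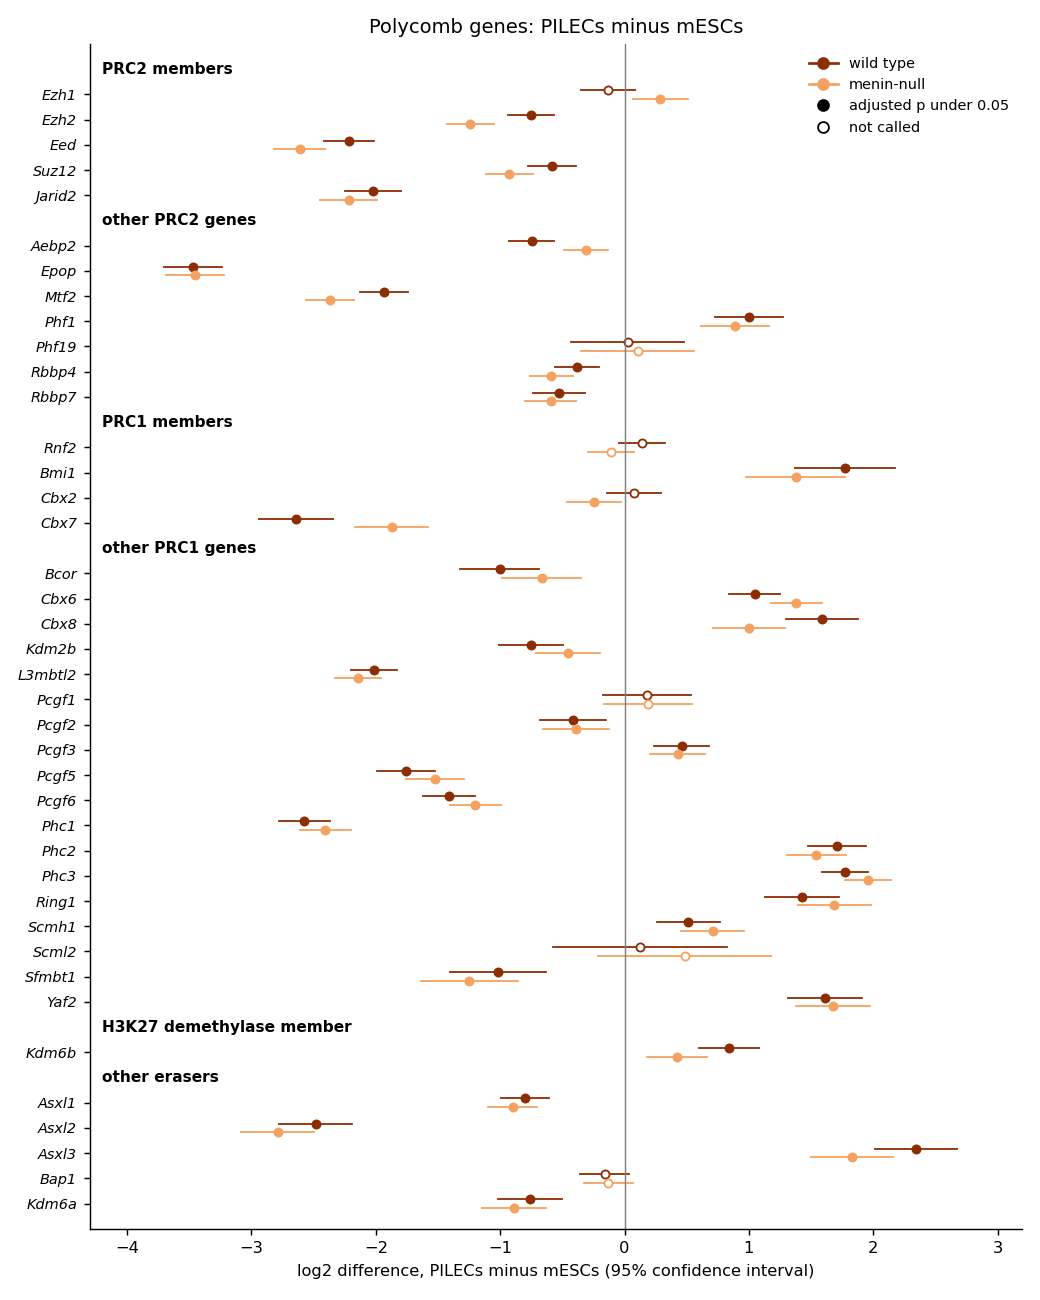
Log2 difference between PILECs and mESCs (x axis) for the members and 30 other Polycomb genes (y axis, by complex) in wild-type and menin-null cells, with 95% confidence intervals and filled points for an adjusted p under 0.05. Most PRC2 genes lie left of 0, whereas PRC1 genes lie on both sides, from Phc1 and Cbx7 on the left to Phc3 and Bmi1 on the right.

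Each level has a place in the order of the 4 groups. For Ezh2 and Eed the order was mESCs of either genotype, whose arrays overlapped, then wild-type PILECs, then menin-null PILECs. Suz12 and Jarid2 had the same order of cell types, with menin-null mESCs 0.10 and 0.04 above wild-type ones. For Cbx7 the mESC groups overlapped at the top and wild-type PILECs were lowest. For Bmi1 wild-type PILECs were highest, menin-null PILECs next, and the mESC groups overlapped at the bottom. Kdm6b followed the order wild-type PILECs, menin-null PILECs, menin-null mESCs, wild-type mESCs, with no overlap between neighbours, although the first 2 and the last 2 did not differ by the adjusted test. Ezh1 had menin-null PILECs on top, without overlap, and then wild-type mESCs, menin-null mESCs and wild-type PILECs, where these last 3 overlapped with their neighbours in the order. The group means of Cbx2 lay within 0.33 of each other and those of Rnf2 within 0.21.

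Single probe sets of a gene did not always move alike. Of the 31, 25 had a group mean of at least 7, and 11 have identifiers ending in s, x or a, which can detect several transcripts or related sequences. Over all probe sets with 1 symbol, 16 of the 31 fell and 6 rose in wild-type PILECs, against 32.8% lower and 27.7% higher among all probe sets, and 16 fell and 7 rose in menin-null PILECs, against 33.8% and 28.9%. The 3 Jarid2 probe sets all fell, by 1.74 to 2.88 in wild-type cells, and the largest fall belonged to the only one without a suffix. The 3 Kdm6b probe sets all rose, by 0.84 to 2.04 with menin and 0.42 to 1.40 without it. Both Bmi1 probe sets rose in both genotypes.

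For Rnf2 the bright and dim probe sets disagreed. Its 2 bright probe sets (means over 11) differed by 0.14 and -0.05 in wild-type cells, while the 3 dim ones fell by 0.53 to 0.63 there and by 0.82 to 1.06 in menin-null cells. In menin-null cells the second bright one also fell (-0.45, adjusted p = 0.00486). Of the 6 Suz12 probe sets, 5 fell in both genotypes, and 1 near 7 stayed level (-0.05 and 0.07). Of the 4 Ezh1 probe sets, a dim one with means of 4.49 to 5.40 rose in both genotypes, where the brightest rose only in menin-null cells and 2 passed in neither. A dim Eed probe set fell by 0.60 in wild-type cells from a mean of 5.48, which is under the expressed limit.

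**Figure D4:**
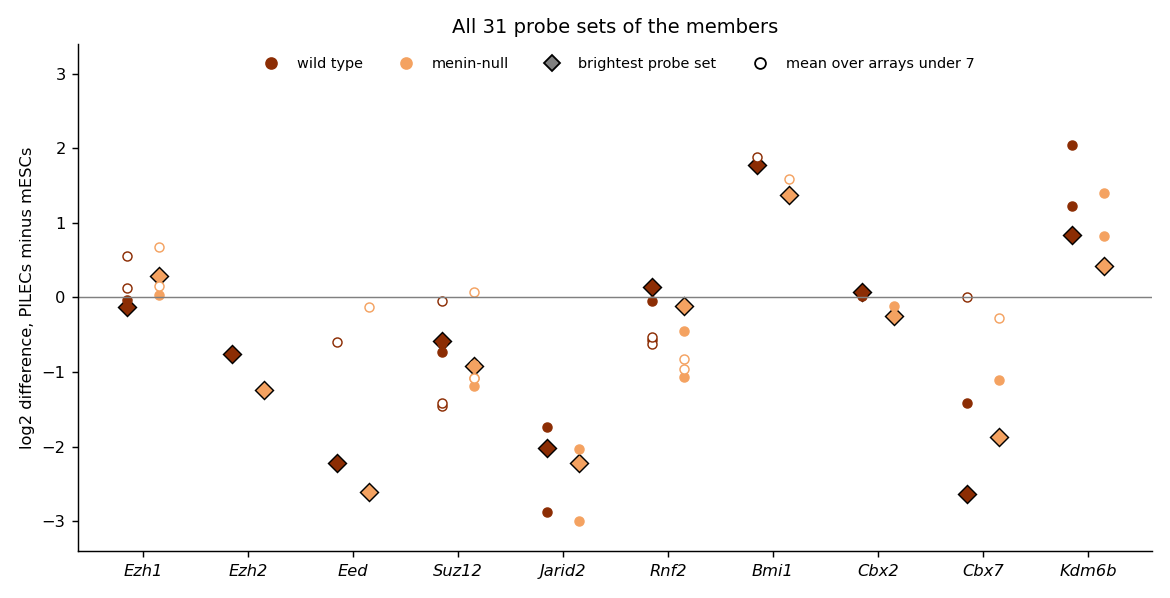
Log2 difference between PILECs and mESCs (y axis) for each of the 31 probe sets of the 10 members (x axis) in wild-type and menin-null cells, with diamonds for the brightest probe set and open symbols for a mean over the 8 arrays under 7. The probe sets of Jarid2, Bmi1 and Kdm6b lie on 1 side of 0, while those of Rnf2 spread from 0.14 to -1.06.

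The rest of the Polycomb machinery was read from 30 further measured genes. In menin-null mESCs none of the 30 passed (limma), with 9 at an unadjusted p under 0.05, against 3369 of all 18193 genes. The values nearest to passing were Aebp2, a PRC2 cofactor (-0.35, adjusted p = 0.0524), and Bcor, a subunit of a variant PRC1 (-0.58, adjusted p = 0.0652). The median was -0.05. In menin-null PILECs 3 of 30 had an unadjusted p under 0.05, against 4229 of all 18193 genes, and the median of the 30 was -0.04. By the adjusted test 1 of 30 was lower, against 4.42% of all genes. That gene was Mtf2, a Polycomb-like PRC2 subunit known from mESCs, with means of 10.84 with and 10.42 without menin (-0.42, SE 0.08, adjusted p = 0.0286). The call of Mtf2 was lost when any of the wild-type arrays or either menin-null PILEC array was left out. In the interaction none of the 30 passed, and 5 had an unadjusted p under 0.05, against 3409 of all 18193 genes.

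On differentiation 26 of the 30 changed in each genotype, 10 higher and 16 lower, with medians of -0.40 and -0.35. Of all genes 63.1% changed in wild-type cells (27.8% higher, 35.3% lower), and 65.0% in menin-null cells (28.9% higher, 36.1% lower). Among 7 other PRC2 genes 5 fell and 1 rose in each genotype. Epop, a PRC2 cofactor of pluripotent cells, fell most (-3.47 with menin and -3.46 without it), then Mtf2 (-1.94 and -2.37). Phf1, another Polycomb-like protein, rose by 1.001 and 0.887. The histone-binding subunits Rbbp4 and Rbbp7 fell by less, 0.38 and 0.53 in wild-type cells.

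Among 18 other PRC1 genes 8 rose and 8 fell in each genotype, and within a subunit family paralogs moved in opposite directions. Of the polyhomeotic genes, Phc1 fell by 2.57 and 2.41 while Phc2 rose by 1.71 and 1.54 and Phc3 by 1.77 and 1.96 (wild-type and menin-null cells in turn). Of the Cbx genes, Cbx7 fell, as given above, while Cbx6 rose by 1.05 and 1.38 and Cbx8 by 1.59 and 1.0004, the latter from mESC means under 7. Of the Pcgf genes, Bmi1 rose and Pcgf3 rose slightly (0.46 and 0.43), while Pcgf2 fell by 0.42 and 0.39, Pcgf5 by 1.76 and 1.53 and Pcgf6 by 1.41 and 1.20. Ring1, the paralog of Rnf2, rose by 1.43 and 1.69. L3mbtl2 fell by 2.01 and 2.14 and Yaf2 rose by 1.61 and 1.68, and these belong to variant PRC1.

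Of 5 other genes that encode erasers of Polycomb marks or partners of such an eraser, 3 fell and 1 rose in each genotype. Kdm6a (Utx), the second lysine 27 demethylase and a subunit of MLL3 and MLL4 complexes, fell by 0.76 and 0.89, opposite to Kdm6b. Among the Asxl partners of the H2A deubiquitinase Bap1, Asxl2 fell by 2.48 and 2.79 and Asxl1 by 0.80 and 0.90, while Asxl3 rose by 2.34 and 1.83 from mESC means under 7. Bap1 itself differed by -0.16 (adjusted p = 0.144) and -0.13 (adjusted p = 0.216).

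For the 5 members whose group means spanned at least 1 log2 unit, the genes with the most similar profile were found by the root-mean-square (RMS) difference of centred values over the 8 arrays, among 12061 expressed genes. For Ezh2 they were Ctnnbl1 (RMS 0.0454), Snrpb2 and Hmgb2. For Eed they were Prps1l3 (0.0480), Dlgap5 and Pno1, for Jarid2 they were Dmd (0.0444), Noc4l and Lbr, and for Cbx7 they were Cd9 (0.107), Itga6 and Socs3. For Bmi1 they were Rnf217 (0.123), Rbm4b and Pnrc1. Like Cbx7, Cd9 had a mean of 9.64 in wild-type PILECs and a greater one, 10.49, without menin. With 8 arrays in 4 groups many genes have such profiles, and the RMS is a description of likeness only.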

How the data were processed

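Total RNA from 2 independent cultures of each group was hybridised to Affymetrix whole-genome mouse arrays, with an array for every culture. Values deposited by the authors are on a log2 scale, from 3.26 to 15.2. RMA and Partek appear in the submitters' processing notes (the versions are not given in the sources used) while the study's methods name another Affymetrix package, so the software behind the values is not known. No background measure is analysed here. The number of arrays limits the precision. Groups and replicate numbers came from the sample titles.

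Of 45101 probe sets, 64 controls, 9160 without and 932 with several gene symbols were left out. A linear model with 4 group means was fitted to 18193 genes (1 probe set each, the highest mean) with limma 3.58.1 in R 4.3.3, with eBayes moderation (4 residual and 3.72 prior degrees of freedom). A second fit used all 34945 probe sets with 1 symbol. P-values were adjusted by Benjamini-Hochberg within each of 5 comparisons. With 2 arrays against 2 the smallest two-sided exact permutation p is 0.333. The p-values reflect how far cultures of the same line differed. The fitting script was tested on simulated data.

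The members and gene lists were chosen with earlier results of these data known. Named genes were the members, the other Polycomb genes that passed (the largest per list, with family members and near misses added after their values were seen), and the 3 nearest profiles. Alternatives were an intensity trend, no moderation, only the 4 arrays compared, a second quantile normalisation, a filter at a group mean of 7, other probe-set rules, a replicate block, leaving out each array, and the study's threshold. Figures used matplotlib and promoter windows came from RefSeq.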

Additional observations from a re-analysis of the deposited data

How the results depend on the processing

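In menin-null PILECs the count of 4 members called was 8 with an intensity trend in the variances, 1 without moderation and with the mean of all probe sets, 2 with the replicate block, 0 at the study's threshold, and 0 to 5 when single arrays were left out. For differentiation the study's threshold left 4 members with menin and 5 without it. For the interaction 0 members became 4 with the trend, 1 on values quantile-normalised again and 2 among genes with a group mean of at least 7. For other Polycomb genes in menin-null mESCs 0 became 4 with the trend, 1 with quantile normalisation, 2 with the filter and 0 to 3 without single arrays. In menin-null PILECs 1 became 2 with the trend, 0 without moderation, with the replicate block and at the study's threshold, and 0 to 1 without single arrays. On differentiation the study's threshold left 17 and 15 of them, and in their interaction 0 became 4 with the trend, 1 with quantile normalisation, 1 with the filter and 0 to 1 without single arrays. The causes were not tested.

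Sign changes fell mostly on differences near 0. In menin-null mESCs Ezh1 became 0.00792 with quantile normalisation, 0.17 with the mean of probe sets and 0.24 without s, x or a probe sets, Suz12 became -0.10 and Jarid2 -0.000183 with the mean of probe sets, Jarid2 -0.15 without s, x or a probe sets, and Cbx2 0.000440 with quantile normalisation. Without single arrays that comparison ranged from -0.0935 to 0.0892 for Ezh1, -0.0418 to 0.0254 for Ezh2, -0.0919 to 0.0086 for Eed, -0.0071 to 0.0922 for Jarid2, -0.298 to 0.0836 for Bmi1, -0.116 to 0.0953 for Cbx2 and -0.0398 to 0.115 for Cbx7. For PILECs minus mESCs in wild-type cells Ezh1 became 0.13 with the mean of probe sets and 0.55 without s, x or a probe sets (adjusted p = 0.0323), and Rnf2 -0.33 with the mean (adjusted p = 0.005302). With quantile normalisation Rnf2 was 0.298 there (adjusted p = 0.00479), and it also passed with the trend and without moderation. In menin-null cells Rnf2 became 0.0895 with quantile normalisation and -0.681 with the mean of probe sets (adjusted p = 6.2e-05). For Eed the interaction became 0.0363 with the mean of probe sets.

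The falls of Ezh2, Eed, Suz12, Jarid2 and Cbx7 and the rises of Bmi1 and Kdm6b on differentiation kept direction and call in the 16 alternatives other than the study's threshold in each genotype. At that threshold Ezh2, Suz12 and Kdm6b were lost in wild-type and Suz12 and Kdm6b in menin-null cells. In menin-null PILECs, Ezh2 passed in 13 of 16, Cbx7 in 11, Eed in 7 and Ezh1 in 5. Ezh2 has only 1 probe set, so the other probe-set rules could not change its value. Quantile normalisation moved all genes called in menin-null PILECs from 412 higher and 804 lower to 607 and 771. The main fit did not pair the samples by replicate number. Correlations of the array differences between groups ran from -0.28 to 0.22. With a single pair of arrays per group they cannot show whether cultures of the same number shared a batch.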
